A study of Caenorhabditis elegans with 18 samples.

Results

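Reads in introns and reads on genes were compared between young adult Caenorhabditis elegans after 2 h of auxin and after 2 h of ethanol, the solvent control. The comparison uses 12 of the 18 libraries of the study, 6 per group, and each group holds 1 library from each of the batches I, II, V, VII, VIII and X. All worms carried the transgene sun-1p::TIR1::mRuby and the tagged allele mog-7::degron::gfp, so the control worms have both as well. They were synchronized hermaphrodites taken before embryos had formed. The only treatment that differs between the groups is auxin or ethanol for 2 h. The plant F-box protein TIR1 was driven by the sun-1 promoter, which is active in the germline, whereas RNA was prepared from whole worms. No worms without the degron or TIR1 were analysed here, so a response to the drug and a response to MOG-7 loss cannot be told apart.

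MOG-7 belongs to the proteins of pre-mRNA splicing that were found in C. elegans through mutants whose germline makes sperm in place of oocytes. The spliceosome cuts introns out of the primary transcript, and an intron that stays in is read in RNA-seq as coverage between exons. With the auxin-inducible degron, auxin joins TIR1 to the tagged protein, which is then ubiquitinated and degraded by the proteasome, so the protein is lost while its mRNA can persist. In the germline of the worm, most of the genes that act in meiosis and oogenesis lie on the autosomes, and the X chromosome is largely silent there.

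Libraries held 18153020 to 28290693 reads on protein-coding genes and 186471 to 885408 reads in 106818 intron intervals. A count of 3 corresponds to 0.106 to 0.165 CPM (counts scaled to the library's gene reads). Ethanol VII had 10.9 intron reads per 1000 gene reads beside 10.2 to 10.46 in the other 5 ethanol libraries, and the auxin libraries spread from 31.3 to 38.1, with the highest value also in batch VII. The mRNA of mog-7 itself, on chromosome I from 8640508 to 8644399 (WBcel235, plus strand), was 36.9 to 42.0 CPM with ethanol (median 39.5) and 38.4 to 45.4 CPM after auxin (median 42.8). These ranges overlapped, the fitted log2 difference was 0.10 ± 0.04 (SE, adjusted p = 0.0211 in edgeR with batch as a block), and without the block it was not called (adjusted p = 0.15). RNA counts do not show whether the protein was depleted.

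Marker genes of the germline and of the body were both read, as the label of whole worms implies. All 8 germline marker genes and all 7 intestinal markers were measured. Of 7 genes first transcribed in the embryo, end-1, end-3, med-1, tbx-35 and pes-10 were under 1 CPM in every library. The other 2, hlh-1 and pha-4, were tested and not called, and the 7 summed to 10.7 to 12.6 CPM with ethanol and 9.82 to 13.9 CPM after auxin. The summed germline markers were 3138 to 3758 CPM with ethanol and 2717 to 3214 CPM after auxin, and 5 of 8 fell and 0 rose, where 26.6% of all genes tested were called downward and 29.1% upward by edgeR at an adjusted p under 0.05. For the intestine the sums were 3455 to 4373 CPM and 3993 to 4908 CPM, and 7 of 7 rose. Of other markers, 4 of 4 of body wall muscle, 3 of 4 of pharynx, 3 of 6 of somatic gonad and 3 of 7 of sperm rose and 0 fell, 3 of 6 neuronal markers rose and 1 fell, and of 5 hypodermal markers 1 rose and 1 fell. In RNA from whole worms, fewer germ cells and less RNA per germ cell cannot be told apart.

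Introns gained reads across the genome, and the autosomes gained far more than the X chromosome. Over all intervals the libraries had 10.4 ± 0.263 intron reads per 1000 gene reads with ethanol and 34.2 ± 2.44 after auxin (SD, n = 6), a ratio of 3.28 that lay between 2.99 and 3.48 in the 6 batches. On the autosomes the ratio was highest on chromosome IV, at 4.15, followed by 3.64 on I, 3.39 on II, 3.34 on V and 3.20 on III. On the X chromosome it was 1.45, from 1.14 ± 0.0224 to 1.65 ± 0.0759 reads per 1000 gene reads of the library. Even there, the lowest auxin library (1.54) lay above the highest ethanol library (1.15).

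The X chromosome also differed when intron reads were set against the reads of their own host genes. Introns of X-linked hosts had 8.35 ± 0.373 reads per 1000 host reads with ethanol and 11.6 ± 0.649 after auxin, and those of autosomal hosts had 9.63 ± 0.26 and 37.1 ± 2.75 (SD, n = 6). The 2 classes were thus close with ethanol and apart after auxin. The log2 ratio was lower on the X by 1.42 to 1.52 in every batch, with a mean difference of -1.47 ± 0.0378 (SD, n = 6), and the exact two-sided sign-flip test over batches gave p = 0.0312, the smallest value that 6 batches allow (0.0375 adjusted over 6 such comparisons).

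In summed reads relative to ethanol, short introns gained the most. Introns of up to 50 bases, which are common in this species, went from 2.18 ± 0.139 to 12.8 ± 1.04 reads per 1000 gene reads (SD, n = 6), a ratio of 5.85. Their share of all intron reads went from 20.97% to 37.2%. The ratio was 3.43 for introns of 51 to 100 bases, 2.55 for 101 to 400, 2.49 for 401 to 1000 and 1.80 for those over 1000 bases. Against host reads, introns of up to 50 bases exceeded those of 101 to 400 bases by 1.14 ± 0.0586 in log2 ratio, and those over 1000 bases by 1.47 ± 0.127 (SD, n = 6). Both differences were positive in 6 of 6 batches (exact sign-flip test, p = 0.0312, adjusted 0.0375). Counted by single introns of hosts with a mean of at least 500 counts, these classes were close. Higher after auxin were 83.5% of introns of up to 44 bases, 84.9% of 45 to 50 and 85.6% of those over 1000. At 10 or more reads per 1000 host reads after auxin were 27.1%, 26.5% and 29.2%. The class over 1000 bases includes the well-read intervals in dph-2, ZK1193.2 and pdzd-8, which overlap exons of other genes.

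**Figure D1:**
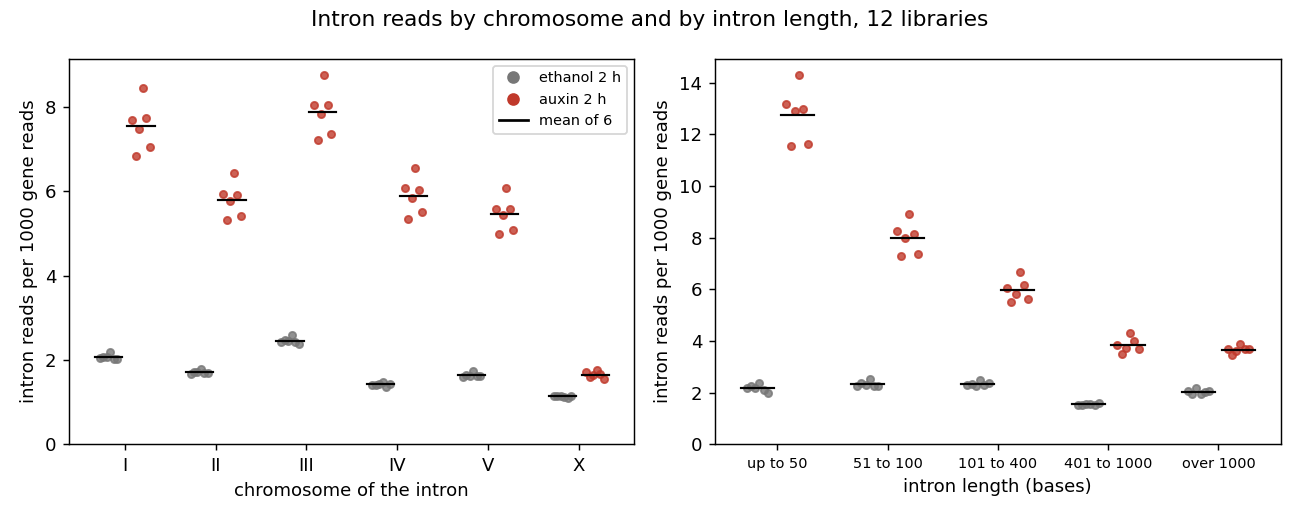
Intron reads per 1000 gene reads of the library (linear axis) by chromosome (left) and by intron length in bases (right), with 1 point per library and a line at the mean of 6. The auxin points lie above the ethanol points in each class, with the narrowest gap on the X chromosome (ratio 1.45) and the widest for introns of up to 50 bases (ratio 5.85).

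Differences by the place of an intron in its gene were smaller. First introns had a ratio of 4.05, internal introns 3.39, last introns 3.48 and the introns of genes that have a sole intron 2.61. Against host reads, first introns exceeded internal ones by 0.23 ± 0.0194 in log2 ratio in 6 of 6 batches (SD, n = 6, exact sign-flip p = 0.0312, adjusted 0.0375). Last and internal introns differed by -0.01 ± 0.0295 (SD, n = 6), with values of -0.03 to 0.03 in the batches and the exact sign-flip p = 0.5. Sole introns were lower than those of genes with 3 or more introns by 0.39 to 0.60 in every batch. The 2110 intervals that equal no annotated intron of their host had a ratio of 0.999, but this class turned to 1.48 without the 1% of intervals that hold the most reads.

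Most introns of well-read genes were higher after auxin. Among 34922 introns in 5578 host genes with a mean of at least 500 counts, the median intron had 0.555 reads per 1000 host reads with ethanol and 3.27 after auxin, and 83.8% of the introns were higher after auxin. That share was 86.4% on the autosomes and 66.3% on the X chromosome. Introns at 10 or more reads per 1000 host reads numbered 1274 with ethanol and 8414 after auxin. By host, 5130 of 5578 genes were higher, the median host went from 6.91 to 32.3 intron reads per 1000 of its own reads, and hosts at 100 or more went from 84 to 888. In 2610 hosts with at least 5 introns and at least 100 intron reads after auxin, the most read intron held a median of 30.1% of the intron reads of its gene after auxin, with a median of 7 introns per gene.

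Single introns were tested with edgeR on 12279 intervals that passed the filter on low counts. Of these, 84% were called upward and 1.56% downward at an adjusted p under 0.05. However, 4079 of the tested introns had at most 3 counts in every ethanol library, so they passed only through their auxin reads and had to rise, and the first share is therefore no measure of breadth. The 2140 tested introns with 10 or more counts in every ethanol library are free of that choice. They were chosen by their ethanol reads, which can favour falls. Among them 908 rose (42.4%) and 172 fell (8.04%), with a median log2 difference of 0.28. Of those on the X chromosome 20.9% rose, beside 52.7% on chromosome IV, and 50.5% of introns of up to 50 bases rose, beside 41.2% of those of 51 to 100 bases, 39.3% of 101 to 400, 36.997% of 401 to 1000 and 44.7% of those over 1000 bases. Scaled instead to the intron reads themselves, which takes out the general gain, 125 rose and 1885 fell, so the direction of such introns is relative to gene reads.

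The 10 introns with the largest rises among those read in ethanol lay in cpg-2, rps-6, rpl-41.2, mel-32, abcf-2, pygl-1, rpl-7A, rla-0, puf-5 and ima-2. Intron 1 of cpg-2, a chondroitin proteoglycan of the eggshell, is 43 bases long (chromosome III, 7103877 to 7103919, minus strand). Intron numbers here count along the annotated transcript with the most introns. It was read at 0.618 to 1.09 CPM with ethanol and 41.5 to 52.4 CPM after auxin, a log2 difference of 5.90 ± 0.12 (SE, edgeR, adjusted p = 4.96e-92), while the cpg-2 gene counts differed by -0.07 and were not called (edgeR, adjusted p = 0.0528). Intron 4 of puf-5, a PUF family regulator of oocyte mRNAs, is 43 bases (chromosome II, 8577109 to 8577151, plus strand) and went from 0.634 to 1.27 CPM up to 12.2 to 20.1 CPM, while the gene counts of puf-5 fell by 0.45 on the log2 scale. Intron 4 of ima-2, an importin alpha, went from 0.782 to 1.41 CPM up to 13.8 to 17.6 CPM. No ethanol library reached the lowest auxin library in any of these introns.

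Of the 10, 4 lay in ribosomal protein genes. The share of such introns among the 2140 introns read in ethanol was not counted. The minimum of 10 ethanol counts can favour introns of abundant hosts. This count is therefore not read as a trait of ribosomal protein genes, which was not tested. Intron 2 of rps-6, which encodes a protein of the small ribosomal subunit, went from 0.707 to 1.15 CPM up to 23.0 to 31.2 CPM (log2 4.97), intron 1 of rpl-41.2 had a log2 difference of 4.92, intron 1 of rpl-7A of 4.23 and intron 1 of rla-0 of 4.15. In rla-0 the ethanol libraries spread from 0.63 to 3.66 CPM, still under the lowest auxin library at 22.4 CPM. Longer introns were present as well: intron 2 of mel-32, a serine hydroxymethyltransferase, has 885 bases and rose by 4.62, intron 3 of abcf-2 has 1283 bases and rose by 4.26, and intron 1 of pygl-1, the glycogen phosphorylase, has 2176 bases and rose by 4.25. The intervals in abcf-2 and pygl-1 overlap annotated exons, of another gene and of pygl-1 itself.

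Other introns were nearly empty with ethanol. Intron 6 of glh-1, a Vasa-like helicase of germ granules, is 48 bases (chromosome I, 6857141 to 6857188, plus strand) and held 14 reads in the 6 ethanol libraries together and 1170 in the 6 auxin libraries, a ratio of 86.9 with an exact counting interval of 51.6 to 159 (95%, counting error only). Intron 5 of pgl-3, which encodes a protein that forms P granules, held 11 and 1155 reads, intron 5 of glh-4 held 14 and 1054, and intron 2 of the microtubule regulator cls-2 held 6 and 1067. Intron 3 of npp-9, a nucleoporin, held 1 read with ethanol, in batch II, and 1025 after auxin. An X-linked gene was among them too: intron 2 of mrp-4, an ABC transporter, held 8 and 1133 reads. These introns were chosen for being nearly empty with ethanol, so the direction is fixed by the choice and the values are a description. After auxin they amounted to between 12.5 (npp-9) and 50.4 (cls-2) reads per 1000 reads of the host.

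A smaller set of introns lost reads. Intron 6 of such-1, a subunit of the anaphase-promoting complex (chromosome III, 11517612 to 11517672, minus strand), went from 0.555 to 1.16 CPM down to 0.0422 to 0.178 CPM and fell by 2.94 on the log2 scale (SE 0.37, edgeR, adjusted p = 6.88e-13). Intron 6 of set-24, a SET domain gene, fell by 2.36 and intron 4 of C24F3.2 by 2.28. Intron 1 of cutl-10 fell by 1.77, intron 2 of plc-4, a phospholipase C, by 1.60 and intron 5 of pdpr-1 by 1.55. Intron 3 of Y57A10A.2 fell by 1.44, but its host fell as well, and relative to the host the difference was -0.30 and was not called (edgeR, adjusted p = 0.155). In each of these introns all auxin libraries lay below all ethanol libraries. Counts per library were 14 to 23 with ethanol and 1 to 5 after auxin in such-1. They were 13 to 22 and 1 to 5 in set-24, 12 to 20 and 0 to 5 in C24F3.2, and 16 to 26 and 5 to 7 in cutl-10. Such introns passed the filter on low counts only through their ethanol reads, so the direction was fixed by that choice and the values are a description. After auxin plc-4 still held 13 to 23 counts and Y57A10A.2 16 to 24.

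The hosts of falling introns mostly fell too. Of the 192 introns called downward, 145 had a host tested as a gene, and that host was called downward in 130 and upward in 1. Relative to host reads 54 introns were called downward of 11150 tested. Of the 155 hosts of a falling intron, 39 had another intron that rose. Among the 4564 hosts of all tested introns, 3453 had an intron called upward. These shares cannot be compared, because 9409 of the 10317 upward calls lay in introns without 10 counts in every ethanol library. Many of those passed the filter only through their auxin reads and had to rise. Tested introns per host were not matched, and the count of 39 leaves out the fallen intron itself. Of the 192, 40 overlap an annotated exon of their own gene and 7 an exon of another gene.

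Of the 6 introns with the highest mean CPM after auxin, 5 rose, by 0.25 to 0.83 on the log2 scale. The ranking used the auxin libraries, so it favours rises and the count is a description. Intron 4 of pab-1, the poly-A binding protein, had 76.4 to 97.1 CPM with ethanol and 80.8 to 94.0 CPM after auxin, and its log2 difference of 0.02 ± 0.06 was not called (edgeR, adjusted p = 0.789). Intron 5 of nhr-114, a nuclear hormone receptor, rose by 0.43, from 72.7 to 88.0 CPM up to 93.5 to 125 CPM, without overlap between the groups. Intron 1 of rps-13 rose by 0.83, from 42.2 to 55.7 CPM up to 78.8 to 98.4 CPM. The intervals in dph-2, ZK1193.2 and pdzd-8 hold 624 to 1728 reads per 1000 host reads already with ethanol, and rose by 0.32 (dph-2), 0.25 (ZK1193.2) and 0.34 (pdzd-8). They are 8652, 2892 and 1673 bases long and overlap exons of other annotated genes, whose part in these reads was not tested, and no strand setting is stated for the intron table. Over intervals free of annotated exons, the ratio of intron reads per 1000 gene reads was 3.78, and over the 4979 that overlap one it was 1.46.

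Gene lists show which transcripts carried the intron reads. For germ granule genes, which encode RNA helicases, Argonautes and scaffolds of P granules, 147 introns in 20 hosts went from 4.70 ± 0.466 to 88.6 ± 3.27 reads per 1000 host reads (SD, n = 6), a ratio of 18.9. Cell division genes followed at 17.2, proteasome genes at 14.1, oocyte and maternal genes at 13.2 and spliceosome genes at 12.6. Meiotic chromosome genes, which build the axis and the synaptonemal complex, reached the highest level, from 15.2 ± 0.641 to 151 ± 10.9 (SD, n = 6). Meiotic recombination genes had a ratio of 6.53, apoptosis genes 5.001, germline stem cell genes 4.40 and cytosolic ribosomal protein genes 4.37. Between or below these were SR protein genes at 8.39, chaperone genes at 5.62, nonsense-mediated decay genes at 5.56, respiratory chain genes at 3.88, histone genes at 3.80 and glutathione S-transferase genes at 1.73. In each of these lists the 6 auxin libraries lay above all ethanol libraries (exact sign-flip test, p = 0.0312, adjusted over 24 lists 0.0357).

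Collagen, muscle, neuropeptide, vitellogenin and UDP-glucuronosyltransferase genes had ratios of 1.06 to 1.16. Collagen genes, which build the cuticle, had 2.56 ± 0.155 and 2.73 ± 0.333 intron reads per 1000 host reads (SD, n = 6), body wall muscle genes 3.60 ± 0.394 and 3.95 ± 0.384, and neuropeptide genes 14.1 ± 2.06 and 14.9 ± 2.03. The exact sign-flip p over batches was 0.406, 0.156 and 0.125 for these lists, and the lowest and highest batch ratios were 0.775 and 1.25 for collagens, 0.904 and 1.35 for muscle and 0.939 and 1.18 for neuropeptides. Collagens (ratio 1.23) and muscle (1.12) were called when the top 1% of introns by reads was left out, and neuropeptides (1.16) were called per 1000 gene reads of the library. Yolk genes (vitellogenins) had 0.905 ± 0.123 and 1.00 ± 0.0969 and were higher in 6 of 6 batches, but the groups overlapped and the exact permutation test without the batches gave p = 0.149. UDP-glucuronosyltransferase genes had a ratio of 1.16, called over batches (exact sign-flip p = 0.0312) and not without them (exact permutation p = 0.0671).

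Among cytochrome P450 genes a few members held most of the intron reads. The list had a ratio of 4.01, and most of their intron reads after auxin came from cyp-31A2 (1702 reads in the 6 libraries, 81 with ethanol) and its relatives cyp-31A3 (942 and 33) and cyp-31A5 (506 and 50); in C. elegans, cyp-31A genes act in the germline to make the eggshell lipid layer. Reads can be shared among these near-identical copies, so the split between them is uncertain. By contrast cyp-35A2, an inducible intestinal member, had 112 and 194 intron reads while its gene counts rose. C-type lectin genes had a ratio of 2.09, and among its hosts clec-91 was at 84 and 2767 intron reads and clec-87 at 394 and 2378. Sperm genes had a ratio of 6.82, and the values of single members differed: the trafficking gene spe-39 held 70 and 1067 intron reads and the sperm phosphatase gsp-3 held 27 and 53. The sperm list as a whole held 820 to 1187 intron reads in each auxin library, so most of them lay in members not named here.

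**Figure D2:**
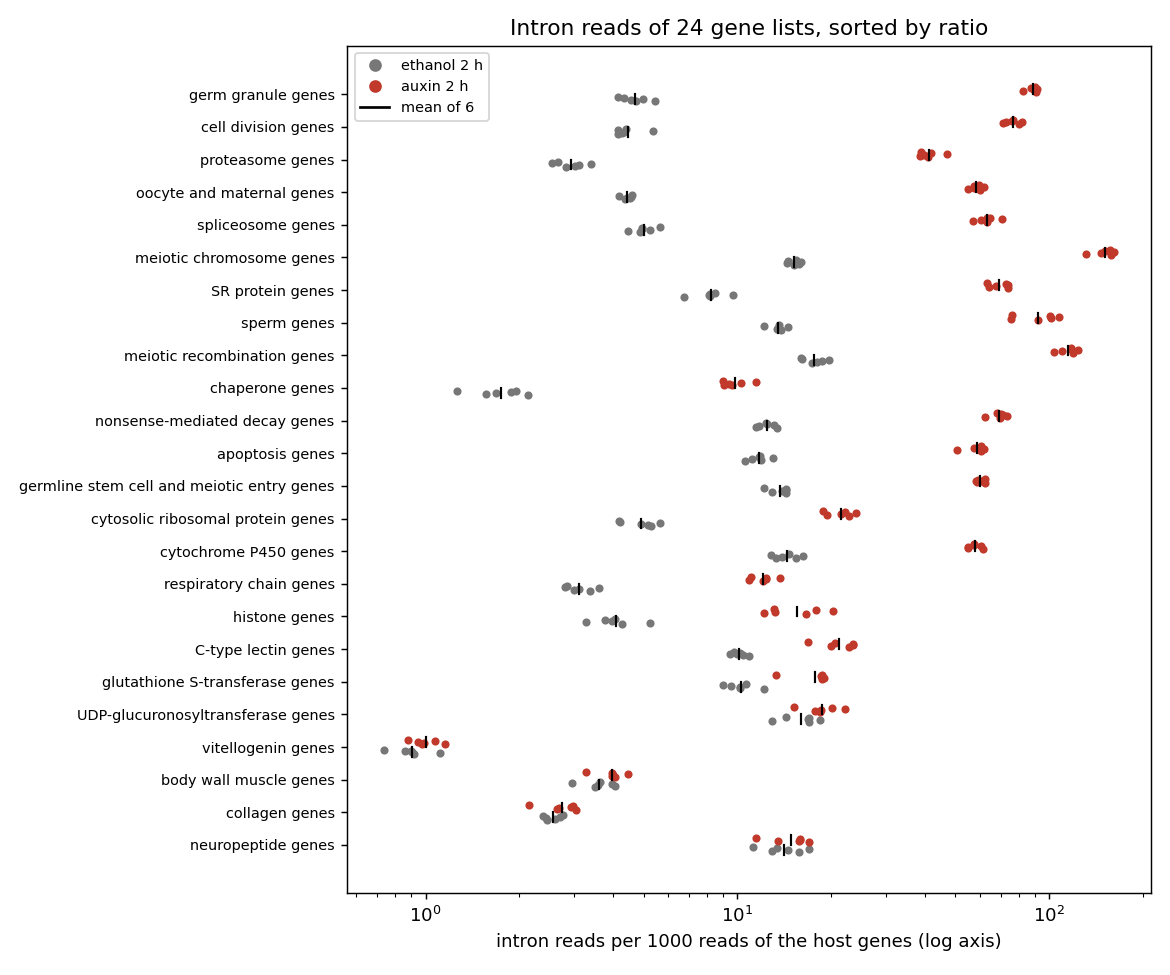
Intron reads for every 1000 host-gene reads (log axis) for 24 gene lists sorted by ratio, with 1 point per library and a line at the mean of 6. Germ granule, cell division, proteasome, oocyte and spliceosome genes show the widest gaps (ratios of 12.6 to 18.9). The points of vitellogenin, muscle, collagen, neuropeptide and UDP-glucuronosyltransferase genes overlap.

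Gene counts changed widely and mostly by little. Of 13786 genes tested by edgeR with batch as a block, 55.7% were called at an adjusted p under 0.05, 4017 upward (29.1%) and 3665 downward (26.6%), but by glmTreat only 230 genes (1.67%) differed by more than 1.5-fold. Among those 230, 190 were lower after auxin and 40 higher. Without the block 4336 genes were called, 1727 upward and 2609 downward, all of them among the 7682 and in the same direction. DESeq2 called 2430 upward and 3394 downward. The median log2 difference of all tested genes was 0.07, so the balance of small rises and falls rests on the scaling, whereas falls outnumbered rises among differences over 1.5-fold in each setting where they were computed.

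**Figure D3:**
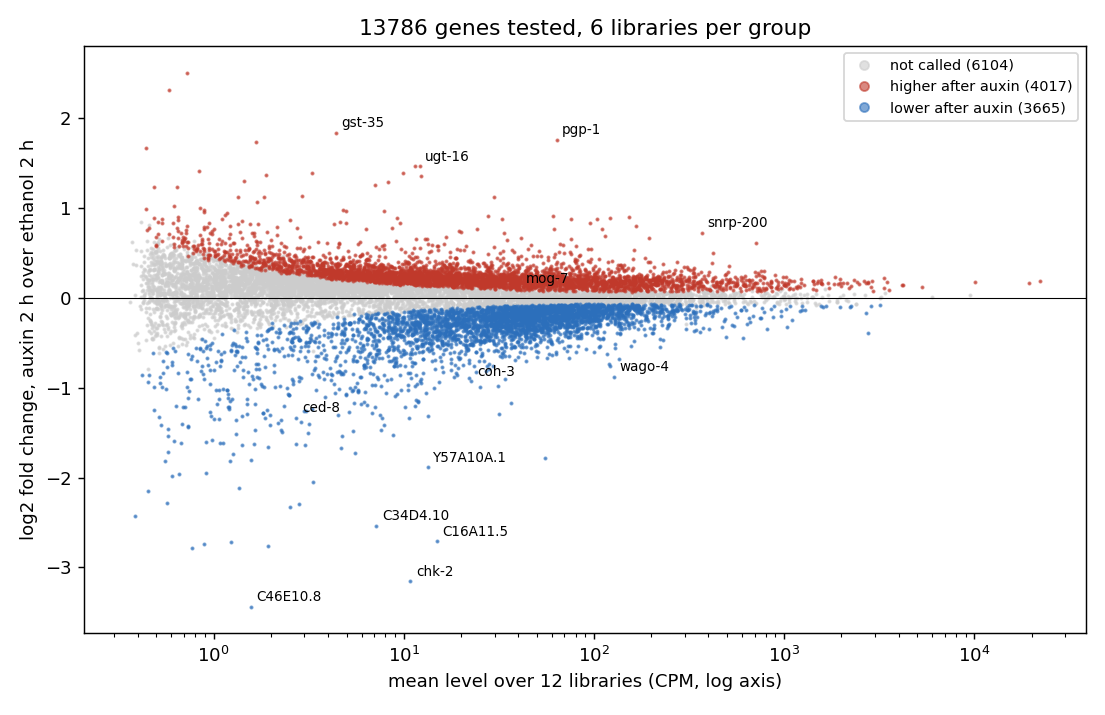
Log2 fold change of gene counts, auxin 2 h over ethanol 2 h, against the mean level in CPM (log axis) for 13786 genes, with called genes in colour. Differences below -1 outnumber those above 1 at low and middle levels, and mog-7 lies near 0 at 0.10.

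The deepest falls were in transcripts of low abundance. Among them, chk-2, the kinase that starts meiotic chromosome pairing and double-strand breaks, was 17.4 to 21.7 CPM with ethanol and 1.80 to 2.63 CPM after auxin, a log2 difference of -3.16 ± 0.09 (SE, edgeR, adjusted p = 9.69e-15). Less well known genes fell with it: C46E10.8 by 3.44 (2.25 to 3.499 CPM down to 0.195 to 0.32 CPM), Y55F3AM.21 by 2.72, T28A8.8 by 2.33, T16H12.1 by 2.29, Y37H2A.7 by 2.12, K05C4.4 by 2.05 and F22D6.8 by 1.81. In Y57A10A.1 the level was 17.6 to 25.2 CPM with ethanol and 4.70 to 6.33 CPM after auxin (log2 -1.89 ± 0.06, SE). The 12 largest falls, which include chkr-1, C16A11.5 and C34D4.10, separated the groups without overlap, as the rule that chose them nearly requires.

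Among the largest rises were genes of detoxification and transport. The level of pgp-1, an ABC transporter of the P-glycoprotein family, was 17.5 to 42.3 CPM with ethanol and 80.3 to 135 CPM after auxin (log2 1.76 ± 0.07, SE). Of the glutathione S-transferases, gst-35 rose by 1.83 and gst-21 by 1.36, from 0.933 to 1.19 CPM up to 1.90 to 3.77 CPM. The P450 gene cyp-13A5 rose by 1.38, and ugt-8, which encodes a UDP-glucuronosyltransferase, rose by 1.39 but overlapped between the groups, with 3.18 to 8.60 CPM and 7.55 to 23.7 CPM. Within each batch ugt-8 was higher after auxin. F59C12.4 (log2 1.47), C29F7.2 (1.35), T16G1.6 (1.29), gna-1 (1.25) and drd-50 (1.14) were among them too.

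Genes of meiosis and of the germline fell together, mostly by small amounts. The counts below are set against 29.1% upward and 26.6% downward among all genes tested. Of 23 meiotic chromosome genes 19 fell and 0 rose (median log2 -0.19), and of 21 meiotic recombination genes 19 fell and 1 rose (median -0.32). The meiotic chromosome list includes chk-2, whose far larger fall is given above, and 2 of its members differed by more than 1.5-fold. The meiotic kleisin coh-3 fell by 0.93 (29.8 ± 2.88 to 15.6 ± 1.52 CPM, SD, n = 6) and lab-1, which protects sister cohesion, by 0.51. The RING finger genes zhp-4 and zhp-2, which act at crossovers, fell by 0.65 and 0.62 and the double-strand break gene dsb-2 by 0.56. The abundant member xnd-1 had a difference of -0.06 and was not called. The rise was in him-6, a RecQ helicase (0.24).

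Among 20 germ granule genes 18 fell and 0 rose, with a median log2 difference of -0.31. The Argonaute gene wago-4 fell by 0.88 (165 ± 17.1 to 89.3 ± 5.54 CPM, SD, n = 6), glh-2 by 0.73, meg-4 by 0.68 and the abundant helicase gene cgh-1 by 0.39, while glh-1 had a difference of 0.00. Of 24 oocyte and maternal genes 16 fell and 4 rose: egg-2 fell by 0.56, oma-1 by 0.47 and mex-6 by 0.46, and the eggshell gene cbd-1 rose by 0.20. Of 11 germline stem cell and meiotic entry genes 8 fell, with puf-8 and nos-2 at -0.54 and gld-1 at -0.25, and 2 rose. Without the block 10 of the oocyte genes fell and 1 rose. Of 22 cell division genes 12 fell and 4 rose (7 and 1 without the block, and 1 rose without TMM scaling and 2 without batch VII or X). Of these icp-1, the INCENP of the chromosomal passenger complex, rose by 0.59 (53.0 ± 7.81 to 79.7 ± 7.82 CPM, SD, n = 6).

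RNA surveillance and protein turnover genes fell as well. Of 9 genes of nonsense-mediated decay, the pathway that destroys mRNAs with early stop codons, 7 fell and 0 rose, with a median of -0.33. The kinase gene smg-1 fell by 0.54 (128 ± 9.67 to 87.7 ± 5.12 CPM, SD, n = 6), smg-7 by 0.40 and smg-5 by 0.34. Of 33 proteasome genes 23 fell and 0 rose (median -0.13), rpn-6.2 by 0.49, and without the block 13 fell. Of 8 apoptosis genes tested 5 fell and 0 rose, with ced-8 at -1.33 ± 0.12 (SE), the p53 homolog cep-1 at -0.55 and the checkpoint clamp gene hus-1 at -0.52.

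Splicing genes moved in both directions, as did genes in general. Of 40 spliceosome genes 12 rose (30%) and 16 fell (40%), with a median of -0.02, beside 29.1% and 26.6% of all genes tested. The U5 helicase gene snrp-200 rose by 0.72 (279 ± 12.5 to 462 ± 31.7 CPM, SD, n = 6), mog-5 by 0.41 and prp-8 by 0.35, each higher in 6 of 6 batches, and rnp-2 fell by 0.36. Intron reads per 1000 host reads went from 2.05 to 81.7 in snrp-200, from 0.966 to 31.6 in prp-8 and from 9.43 to 129 in snr-1, whose gene counts fell by 0.11 on the log2 scale. Without the block 8 spliceosome genes rose and 8 fell. Of 10 SR protein genes 2 rose and 4 fell, rsr-2 by +0.37 and rsp-4 by -0.24.

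Genes of the body and of sperm rose slightly. All 15 body wall muscle genes rose (median log2 0.18), unc-54, the main myosin heavy chain, by 0.22, and all 6 vitellogenin genes rose (median 0.17). Of 106 collagen genes tested 61 rose (57.5%) and 0 fell, and of 69 sperm genes 44 rose (63.8%) and 2 fell. Of 108 neuropeptide genes 38 rose (35.2%) and 1 fell. Among all genes tested 29.1% were called upward and 26.6% downward, so the upward share of neuropeptide genes was near that of all genes. The small rises of these lists rest on the pairing by batch. Without the block 7 muscle genes, 0 vitellogenin genes, 4 collagen genes, 4 sperm genes and 13 neuropeptide genes were called upward. In that fit 1727 of all 13786 genes tested were called upward. DESeq2 with the block called 9 neuropeptide genes upward. The medians of these lists, at 0.17 to 0.19, stand beside 0.07 for all genes, and the summed intestinal markers given above moved with them; their part in these rises was not tested.

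Detoxification families rose further. Of 58 UDP-glucuronosyltransferase genes 43 rose and 1 fell (median log2 0.34), and 4 rose by more than 1.5-fold. Of 50 P450 genes 31 rose and 5 fell (0.32), and of 35 glutathione S-transferase genes 18 rose and 3 fell (0.26). Without the block 26, 19 and 14 were called upward. The abundant ugt-63 rose by 0.83 (68.8 ± 16.8 to 123 ± 29.9 CPM, SD, n = 6) and gst-4 by 0.58, whereas the falls among P450 genes include cyp-31A2 (-0.32), cyp-31A3 (-0.29) and cyp-31A5 (-0.62), the members with the intron gains. C-type lectin genes had 52 rises and 4 falls among 99 tested, and 26 and 2 without the block. Reads of close paralogs in these families may be split unevenly by the counting. Of 78 cytosolic ribosomal protein genes 54 were not called, 17 fell and 7 rose, but without TMM scaling 28 fell and 3 rose, without the block 1 fell and 2 rose, and 3 rose without batch VII or without batch VIII. Of 34 respiratory chain genes 12 rose and 1 fell, and without the block 5 and 0. Of 16 chaperone genes 8 rose and 1 fell, whereas without the block 1 rose and 0 fell, without batch VII 4 rose and 2 fell, and without batch X 5 rose and 1 fell.

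**Figure D4:**
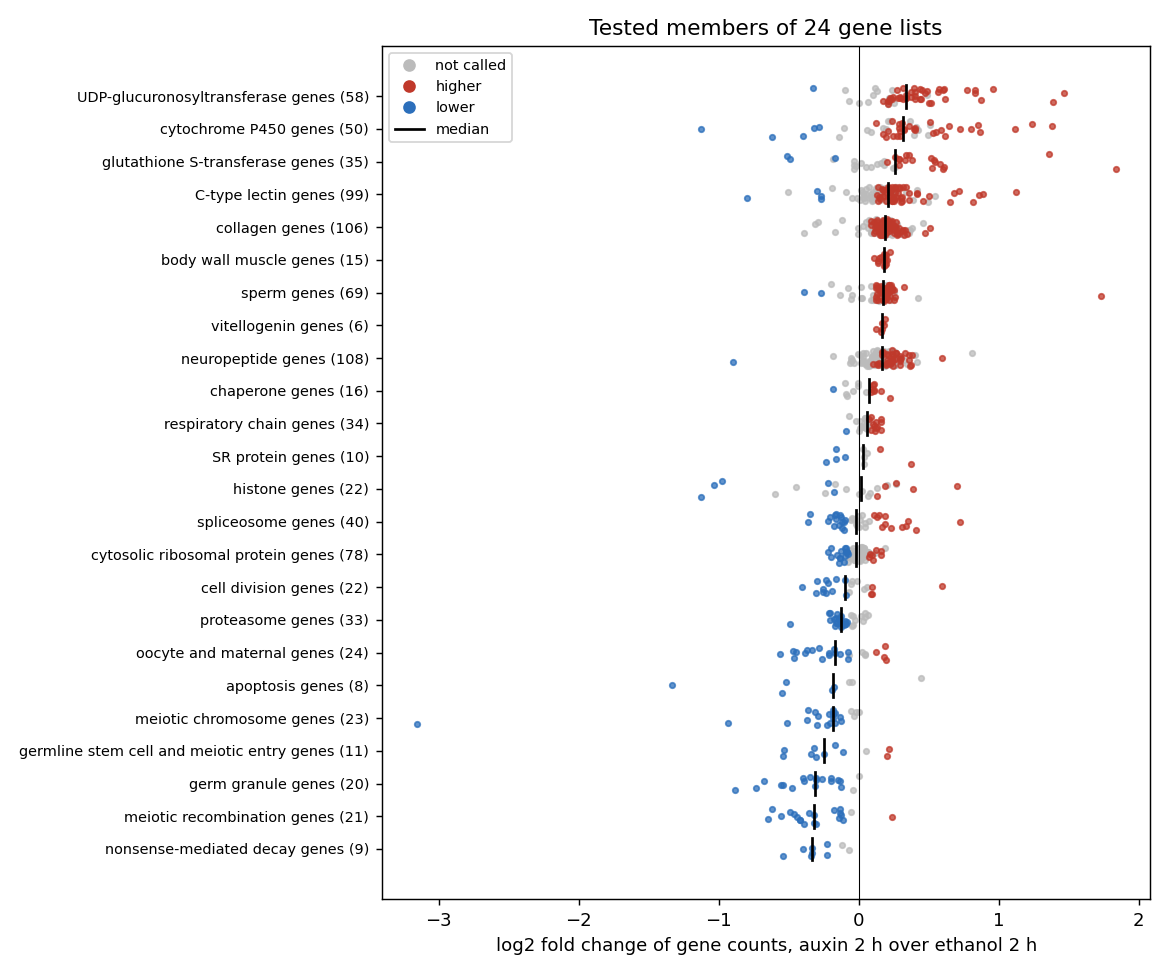
Log2 fold change of gene counts for the tested members of 24 gene lists (number tested in parentheses), with 1 point per gene and a line at the median, sorted by median. Medians run from -0.33 for nonsense-mediated decay genes to 0.34 for UDP-glucuronosyltransferase genes, and chk-2 is the point at -3.16.

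Histone genes need their spread beside the count. They had 5 rises and 5 falls among 22 tested, 2 and 2 without the block, and 2 rises without batch VII. The falls of his-64 (-1.12 ± 0.36, SE) and his-63 (-0.98 ± 0.27) rested on batch V: without it the log2 differences were -0.35 and -0.42 and neither was called (edgeR, adjusted p = 0.426 and 0.132). The his-64 level was lower after auxin in 4 of 6 batches and his-63 in 3 of 6. The libraries were selected for poly-A RNA.

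Gene counts and intron reads were related across genes. Genes were put into classes by the gain of intron reads after auxin per 1000 reads of the gene, averaged over the 12 libraries. The gene's reads after auxin are part of that divisor, so a fall of the gene counts by itself raises the gain. How much this adds to the relation was not tested. Where the gain was under 1, 35.9% of 2367 genes were called upward and 9.25% downward. In the class of 1 to 10 it was 51.05% upward and 10.3% downward of 3250 genes, and in the class of 10 to 50 it was 19.7% and 31.97% of 4373 genes. In the class of 50 to 200 it was 10.8% upward and 51.1% downward of 2295 genes, and over 200 it was 12.1% and 60.3% of 380 genes, with medians of 0.16, 0.16, 0.01, -0.12 and -0.23 on the log2 scale in these 5 classes. By chromosome, 38.02% of X-linked genes were called upward and 14.8% downward, beside 33.6% and 19.3% on V, 31.2% and 26.96% on IV and 22.4% and 36.5% on I. Genes are not independent replicates, and the summed germline markers given above fell as well; their part in the relation was not tested. Whether the gene counts include reads that reach into an intron is not given in the sources used here.

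**Figure D5:**
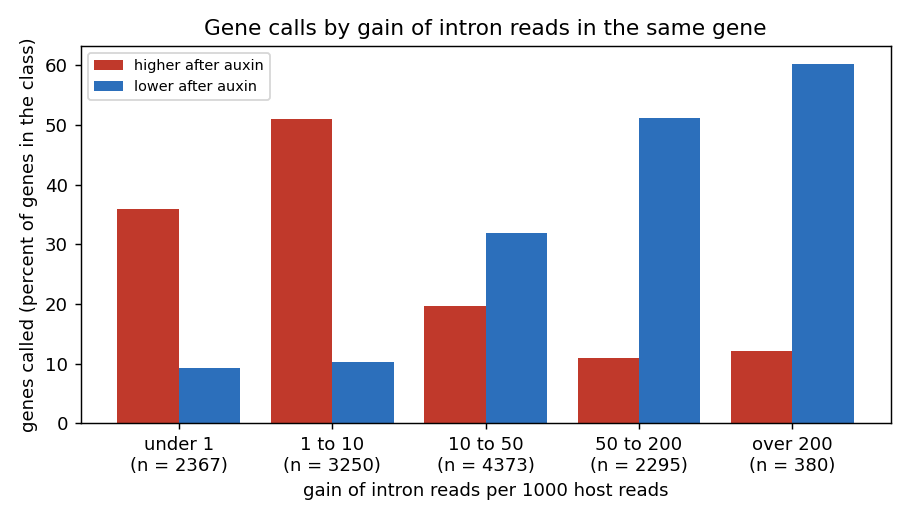
Percent of tested genes called higher or lower after auxin, by the gain of intron reads per 1000 host reads in the same gene (number of genes under each class). Calls downward go from 9.25% in the class under 1 to 60.3% in the class over 200.

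Single genes varied around this relation. The cohesin gene coh-3 went from 73.9 to 977 intron reads per 1000 host reads while its gene counts fell by 0.93 on the log2 scale, and set-31, a SET domain gene, went from 32.8 to 792 and fell by 1.18. In wago-4 the intron reads went from 34.3 to 506 per 1000 host reads. On the other side, bec-1, the Beclin of autophagy, went from 43.4 to 910 intron reads per 1000 host reads with gene counts at -0.05 (not called, edgeR adjusted p = 0.392), and CD4.8 from 19.2 to 698 with a rise of 0.31. In cls-2 the gene counts rose by 0.89 (85.2 ± 7.11 to 157 ± 6.43 CPM, SD, n = 6), in the presence of the intron gain described above.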

How the data were processed

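The authors deposited raw read counts per protein-coding gene (reverse strand) and per intron interval, per the file headers and the values, which are whole numbers with unequal sums. The submitters' processing notes name Trimmomatic, cutadapt, STAR, SAMtools, Picard, featureCounts, edgeR and limma, with no role or version. Per the labels' protocols, RNA was extracted with TRIzol LS and an RNeasy Micro kit and poly-A selected, stranded TruSeq libraries were made. The genome build is not given in the sources used here; 104851 of 106818 intervals equal an intron of WBcel235 (Ensembl), and those coordinates are used. Symbols were found for 19879 of 20191 genes. No column of values lacked a sample (0).

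Groups and batches come from the labels. Counts were tested in R 4.3.3 with edgeR 4.0.16 (quasi-likelihood, TMM, filterByExpr with a minimum count of 10, Benjamini-Hochberg adjustment, threshold 0.05; glmTreat for 1.5-fold) over 12 libraries with batch as a block. Introns were scaled by the gene table's library sizes and TMM factors. Adjusted p-values and SE are from this fit unless another is named; SE is the log2 difference over the root of F. The batches pair the libraries: they are named in the labels, and same-batch libraries deviated together across genes (correlations 0.244 to 0.771, each highest with its own batch). Across introns the same-batch correlations were 0.0156 to 0.248, and for batches I, II and VIII another batch was higher. Nothing says that the batches are separate cultures, so p-values measure only the spread between these libraries. No pair within a group agreed within sampling noise (chi-square per degree of freedom 5.29 to 31.6 over 30 pairs). The biological coefficient of variation was 0.0428 for genes and 0.149 for introns. The 95% Wilson half-width of a library's share of intron reads was at most 0.0079 percentage points; intervals cover counting error only. Sums of intron reads were compared by exact two-sided sign-flip tests over 6 batches and exact permutation tests.

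Lists and members were chosen with earlier results of these data known. Named genes are the 12 largest rises and falls that were called, of the same sign in 6 of 6 batches and with a mean of at least 50 counts in the higher group; mog-7; and of each list the 3 largest called changes and the most abundant member. Introns (annotated, 1 host) are the 10 largest rises among those with at least 10 counts per ethanol library, and the 10 largest falls. Added were the 6 with the highest mean CPM after auxin, and the 6 highest by that measure among those at 3 counts or fewer in every ethanol library. Hosts given with their intron reads for a list, the hosts in the last paragraph of the report, and him-6, snr-1, cyp-35A2, cyp-31A3, cyp-31A5, gst-4 and ugt-63 were named after their values were seen. One gene that the rule names is not reported here. Methods were checked on simulated data. Alternatives were other scalings, DESeq2 1.42.0, no filter, no block, all 18 libraries, host-relative counts and leaving out each batch.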

Additional observations from a re-analysis of the deposited data

Results flagged for a closer look

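In each group, sets of 6 libraries were examined for the 12 largest rises and 12 largest falls of genes, mog-7, and the named introns. Intron totals and list levels of intron reads were examined too. Genes named only as members of a list were not examined. Of these 164 sets, 12 had a highest or lowest library farther from the others than the 95% limit for 6 values, where chance gives about 1 in 20. Among genes, C29F7.2 was highest in auxin V at 31.2 CPM (10.9 to 18.1 in the others), gna-1 lowest in ethanol I at 3.34 CPM (4.05 to 4.46), and C16A11.5 highest in auxin I at 4.53 CPM (3.76 to 3.98). In ethanol V, Y55F3AM.21 was lowest at 1.64 CPM (2.14 to 2.42) and C34D4.10 lowest at 10.1 CPM (12.1 to 13.05).

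Among introns, mel-32 intron 2 was highest in ethanol I at 1.63 CPM (0.788 to 1.06). In ethanol II, glh-4 intron 5 was 0 (0.105 to 0.136 in the others) and npp-9 intron 3 was 0.0397 CPM (0 in the others); the first of these rests on a few reads and the second on 1 read. In auxin II, npp-9 intron 3 was lowest at 5.41 CPM (7.64 to 8.96). Ethanol VII was highest in intron reads per 1000 gene reads, at 10.9 (10.2 to 10.46), and in those of cell division genes per 1000 host reads, at 5.35 (4.15 to 4.41). Auxin X was lowest for glutathione S-transferase introns, at 13.3 per 1000 host reads (18.6 to 18.9).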

How the results depend on the processing

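The pairing by batch mattered most for genes: with no replicate block 4336 genes were called (144 over 1.5-fold) and 4836 with all 18 libraries, and block-free tests left vitellogenin introns (ratio 1.11) and UDP-glucuronosyltransferase introns (1.16) uncalled. Leaving out each batch gave 6866 to 7305 genes. For introns, DESeq2 called 20500 and the fit with no filter 23867, both over more intervals. TMM on the intron table lowered the median of introns read in ethanol from 0.28 to -1.73 on the log2 scale and called 2010; it reversed the most read introns, to -1.68 for pdzd-8 intron 8, -1.77 for ZK1193.2 intron 6, -1.58 for nhr-114 intron 5, -1.70 for dph-2 intron 5, -1.19 for rps-13 intron 1 and -1.997 for pab-1 intron 4, which this scaling does by construction. When the 1% of introns holding the most reads were left out, vitellogenin introns (1.22) were no longer called, collagen (1.23) and muscle introns (1.12) were, and intervals of no annotated intron had a ratio of 1.48; neuropeptide introns per 1000 gene reads of the library had 1.16 and were called. Over intervals free of annotated exons, an alternative chosen after seeing the data, intervals of no annotated intron had 1.72. The causes of these last changes were not tested. Of 463 alternative values of whole comparisons 449 were labelled as unchanged. For numbers of calls this label means a total within 1.5-fold, whatever the direction of the calls. For sums without a batch it means a ratio moved by no more than the SD over batches and not reversed. Only the remaining sums were held to the threshold. Of the other 14 values, 6 were lower or lost the call, 6 were higher or gained it and 2 sums changed direction. The 2010 calls with TMM on the intron table count as higher, though 125 rose and 1885 fell. Of 1780 alternative values of single genes and introns 1680 kept the side of the threshold and, where called, the direction. Of the rest, 90 lost the call, 4 gained it and 6 reversed as above. The class by splice-site sequence was not run, as no genome was used. Depth limits introns: a library with 3 counts is at 0.106 to 0.165 CPM.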
